A study of Homo sapiens with 6 samples.

Results

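Complement is a cascade of blood and tissue proteins that marks and lyses cells, and 9 of its genes were followed here by symbol in RNA sequencing of HEC-1B cells. They were the central component C3, the proteases CFB, C1R and C1S, the soluble inhibitors CFI and SERPING1, and the membrane inhibitors CD46, CD55 and CD59. All 9 were found among the 23284 gene symbols of the deposited tables. HEC-1B is an established human endometrioid carcinoma line, and its cells were grouped by aldehyde dehydrogenase (ALDH), an enzyme family used as a marker of cancer stem cells. The comparison of interest in the series is between cells that did and did not show a faster move from low to high ALDH1A1.

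There were 6 libraries in 3 groups of 2. The first group was HEC-1B with the label of high ALDH potential and accelerated transition to ALDH-high, called high-potential here. The second was HEC-1B without the potential label, also accelerated, called HEC-1B accelerated. The third was HEC-1B without the potential label, labelled ALDH-high to low, called high-to-low. All cells were of the same line, and the labels name no allele, agent or time. How the high-potential cells were derived, and whether replicates were separate cultures, is not given in the sources used here, so p-values measure only the spread between these libraries. No high-potential culture labelled high to low was analysed, so the potential label and the transition cannot be told apart in high-potential against high-to-low.

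C3 is cleaved to C3b, which coats surfaces, and C3a, which attracts and activates leukocytes. C1R and C1S are the proteases of the C1 complex that start the classical pathway, and CFB supplies the protease of the alternative pathway convertase that cleaves more C3. The inhibitors act at different steps. SERPING1 (C1 inhibitor) blocks C1R and C1S, CFI cuts C3b with the help of CD46, CD55 breaks up the convertases, and CD59 stops the membrane attack complex. Epithelial tumour cells commonly make the membrane inhibitors, and liver is the main source of the circulating components.

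Values are FPKM (fragments scaled to transcript length and to library size), which the authors computed and which allow levels of different genes to be set side by side. How library size was taken is not given in the sources used here. In each library 14786 to 15386 genes lay above 0, and relative depth read from the steps between low values was 0.816 to 1.08 with high-potential replicate 1 at 1. On a transcript of 1 kilobase, 1 fragment was worth about 0.0949 to 0.126 FPKM. Of 6 epithelial and endometrial markers, PAX8 was 123.1 to 188.9, KRT18 290.6 to 464.4 and KRT19 16.9 to 46.1 FPKM, while the cadherin CDH1 was at most 0.0868 FPKM. High-potential cells held KRT8 at 49.4 and 47.1 FPKM against 90.6 to 107.7 elsewhere, and EPCAM at 3.49 and 2.16 against 4.43 to 10.6. Both were thus lower in both high-potential libraries than in all 4 others, as were 17.5% of the 12135 genes tested below. The part of these 2 markers in the C3 result was not tested. Of markers of cells that secrete complement, 6 hepatocyte genes stayed at or below 0.435 FPKM and 8 leukocyte genes at or below 1.79 FPKM, with CD3E, CD163 and MS4A1 listed at 0 in all 6 libraries. High-potential cells held the marker ALDH1A1 at 352.5 and 303.6 FPKM, against 26.7 and 316.9 in HEC-1B accelerated replicates 1 and 2, and 28.4 and 9.44 in high-to-low. HEC-1B accelerated replicate 1 thus lay inside the high-to-low range for this gene.

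C3 was high in the high-potential libraries, and of the 7 members that entered the test it was the only one called between groups. It was 42.0 and 50.6 FPKM there (46.3 ± 6.07, SD, n = 2). HEC-1B accelerated replicates 1 and 2 held 0.998 and 0.388 FPKM, and the high-to-low libraries 0.415 and 0.298. Both high-potential libraries stood far above all 4 others, and the other groups overlapped with each other. The mean of the high-potential libraries was 88.3 times that of the 4 others (0.525 ± 0.320 FPKM, SD, n = 4). At the longest coding transcript of C3 these levels correspond to roughly 2120 to 2160 fragments in the high-potential libraries and 14.1 to 47.9 in the others, so C3 was low there but not at 0.

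A single limma model tested every gene that reached 1 FPKM in 2 or more libraries, on log2(FPKM + 1), a scale that understates changes of low genes. Calls were two-sided, at a p below 0.05 after Benjamini-Hochberg adjustment over the 12135 genes tested. C3 was higher in high-potential than in HEC-1B accelerated cells by 4.82 on this log2 scale (SE 0.265, limma adjusted p = 0.00194), and 1 of 7 tested members was called where 0.494% of all genes were. Against high-to-low the C3 difference was 5.12 (SE 0.265, limma adjusted p = 0.00187), again with 1 of 7 members called against 0.799% of all genes. Set against the mean of both groups without the potential label it was 4.97 (95% interval 4.42 to 5.53, limma adjusted p = 0.000802), with 1 of 7 called beside 2.3% of all genes. C3 reached 1 FPKM in the high-potential libraries alone, so it entered the test only through the group where it is high, and the counts of 1 of 7 are a description. In the fit without a filter on low values its limma adjusted p was 0.0162, 0.0169 and 0.00773 in the same order. These 3 comparisons share the high-potential libraries and are not independent of each other. In each of them C3 stayed called under every alternative run, including the loss of any 1 library, with limma adjusted p up to 0.0434.

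Between HEC-1B accelerated and high-to-low cells C3 differed by 0.30 (95% interval -0.34 to 0.94, limma adjusted p = 1), and 0 of 7 members were called (0 had an unadjusted p under 0.05) while 0.0165% of all genes were. The mean of both accelerated groups exceeded high-to-low by 2.71 for C3 (SE 0.229, limma adjusted p = 0.0275), where 1 of 7 members and 0.0659% of all genes were called. The accelerated groups themselves differed by the 4.82 given above, so that mean joins unlike values. This last call was lost without either high-potential library (limma adjusted p = 0.117 and 0.148 without replicates 1 and 2) and without either high-to-low library (0.171 and 0.254). The difference itself stayed at 2.64 to 2.77 in these 4 fits.

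The description field of the samples carries a number with one of 2 prefixes, whose meaning the labels do not give. One prefix is shared by replicate 1 of the high-potential and HEC-1B accelerated groups and both high-to-low libraries, where C3 was 42.0 FPKM in the first and 0.298 to 0.998 in the rest. The other is shared by replicate 2 of the high-potential and HEC-1B accelerated groups, where C3 was 50.6 and 0.388 FPKM. With a term for this prefix the C3 difference from the mean of the other groups was 5.005 (limma adjusted p = 0.00129).

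**Figure D1:**
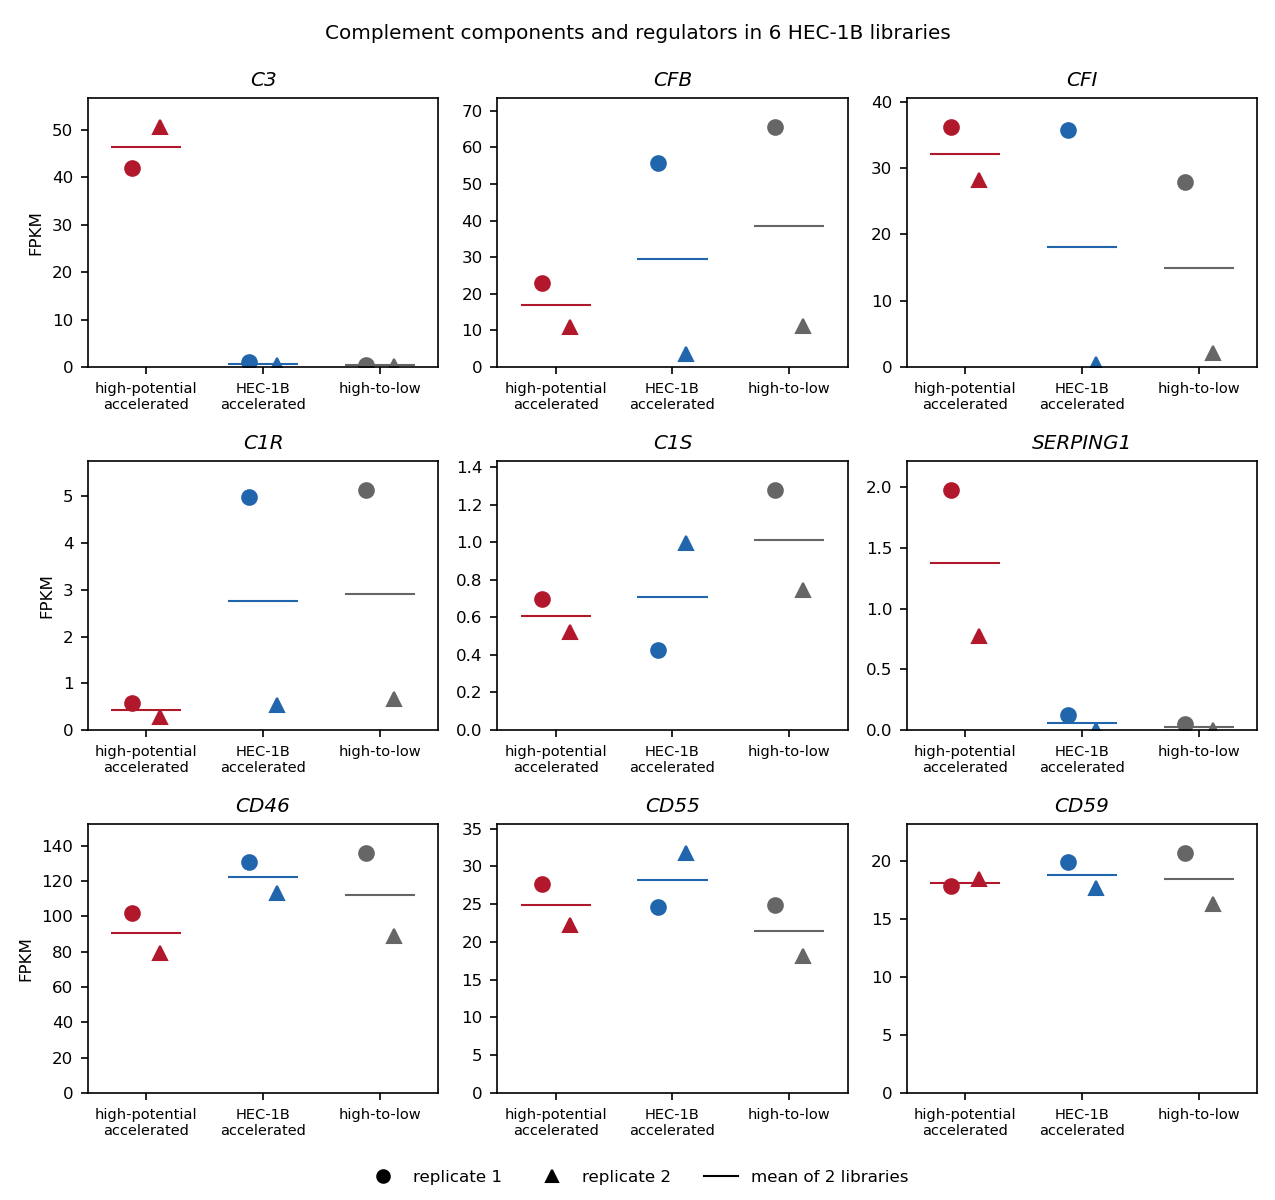
Each panel plots the FPKM (linear axis from 0) of 1 complement gene in the 6 libraries, by group on the horizontal axis, with circles for replicate 1, triangles for replicate 2 and a line at the mean of 2 libraries. C3 sits at 42.0 and 50.6 FPKM in the high-potential libraries and below 1 in the rest, CFB, CFI and C1R are high in replicate 1 and low in replicate 2 of the groups without the potential label, and CD59 lies between 16.3 and 20.7 FPKM in every library.

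By likeness of profile, the genes nearest to C3 were CCL2, SNORA66, IL8, TFPI2 and SPARC. Likeness was the Euclidean distance between log2(FPKM + 1) values centred on their mean over the 6 libraries. The distance was 0.63 for CCL2, a monocyte chemokine, 0.92 for SNORA66, a small nucleolar RNA, 1.28 for IL8, a neutrophil chemokine, 1.65 for TFPI2, a protease inhibitor, and 1.65 for SPARC, a matricellular protein. High-potential cells held CCL2 at 23.9 and 39.3 FPKM, and the other libraries at most at 0.157, with 3 of 4 listed at 0. IL8 was 16.3 and 27.8 against 0.0668 to 0.979 FPKM, with its highest value outside the high-potential group in HEC-1B accelerated replicate 1, as for C3. These 6 libraries share the split by group. A close profile thus needs only a high level in 2 of them and a difference similar in size to that of C3.

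SERPING1, the inhibitor of C1R and C1S, was also detected mainly in the high-potential libraries, but at a low level. It was 1.98 and 0.772 FPKM there and 0.122 and 0.0527 in replicate 1 of HEC-1B accelerated and high-to-low, and it is listed at 0 in replicate 2 of both. The high-potential values did not overlap the others, but the values outside the high-potential group amount to an estimated 2.48 and 1.24 fragments. SERPING1 reached 1 FPKM in 1 library, so it did not enter the test. In the fit without a filter on low values it was higher in high-potential cells than in the mean of the others by 1.14 (SE 0.218), with a limma adjusted p of 0.0909 that did not pass.

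The classical pathway proteases were scarce. High-potential cells held C1R at 0.574 and 0.274 FPKM, HEC-1B accelerated cells at 4.98 and 0.534, and high-to-low cells at 5.14 and 0.661. Replicate 1 of both groups without the potential label stood apart, while replicate 2 lay within the high-potential range in HEC-1B accelerated and just above it in high-to-low. The difference of high-potential from the mean of the others was -1.14 (95% interval -2.82 to 0.55, limma adjusted p = 0.426). C1S, its partner in the C1 complex and its neighbour among the coding genes of chromosome 12, was 0.699 and 0.520, then 0.427 and 0.993, then 1.28 and 0.747 FPKM in the same order of groups. Both high-to-low values lay above both high-potential values, HEC-1B accelerated overlapped each, and C1S did not enter the test. Both genes were at their highest in high-to-low replicate 1, whereas HEC-1B accelerated replicate 1 held C1R at 4.98 FPKM and the lowest C1S value. The C1S values rest on few fragments, at most an estimated 41.4 in a library. C1R reached 1 FPKM only in replicate 1 of the groups without the potential label, and so entered the test through them.

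CFB and CFI differed widely between the 2 libraries of each group without the potential label, and less between the high-potential libraries. In the high-potential libraries CFB stood at 22.8 and 10.99 FPKM. HEC-1B accelerated replicate 1 held 55.6 FPKM and replicate 2 held 3.47, a ratio of 16.0. The high-to-low libraries held 65.6 and 11.2 FPKM, a ratio of 5.87. Every group overlapped every other for CFB, and the difference of high-potential from the mean of the others was -0.33 (95% interval -3.03 to 2.36, limma adjusted p = 0.906).

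Both high-potential libraries held CFI, at 36.2 and 28.2 FPKM. HEC-1B accelerated replicates 1 and 2 held 35.7 and 0.461 FPKM, and high-to-low replicates 27.9 and 2.04. Replicate 1 of the groups without the potential label lay at or near the high-potential level, and replicate 2 was 77.6 times lower in the accelerated and 13.7 times lower in the high-to-low group. The difference of high-potential from the mean of the others was 1.99 (95% interval -1.39 to 5.37, limma adjusted p = 0.488). Leaving out HEC-1B accelerated replicate 2 gave 0.83, leaving out replicate 2 of high-to-low gave 1.18, and leaving out HEC-1B accelerated replicate 1 gave 3.16, uncalled in each. In bulk libraries, fewer cells that express a gene and less RNA per cell cannot be told apart.

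In both groups without the potential label, CFB, CFI and C1R were thus higher in replicate 1 than in replicate 2, while the high-potential replicates lay closer together. This was seen after the values were known, and it is given as a description without a test. On the log2(FPKM + 1) scale, replicate 1 exceeded replicate 2 by 3.66 for CFB, 4.65 for CFI and 1.96 for C1R in HEC-1B accelerated. In high-to-low the same differences were 2.45, 3.25 and 1.89, and in the high-potential group 0.99, 0.35 and 0.31. This scale understates the last value, as C1R was low there (an estimated 14.9 and 5.79 fragments). By ratio of FPKM, replicate 1 of C1R was 2.10 times replicate 2 in high-potential, 9.33 times in HEC-1B accelerated and 7.78 times in high-to-low. A difference of at least 1 in both groups without the potential label was found for 3 of 7 tested members and for 1.56% of all genes. A higher value in replicate 1 of all 3 groups was found for 4 of 7 members (the same genes and CD46) and 24.5% of all genes. Among other complement genes C5 and C5AR1 met the first rule. Beside it, ALDH1A1 was higher in replicate 2 than in replicate 1 of HEC-1B accelerated (316.9 against 26.7 FPKM) and lower in replicate 2 of high-to-low (9.44 against 28.4 FPKM). KRT19 was also higher in replicate 1 (46.1 and 27.1, 44.6 and 16.9, 39.7 and 17.7 FPKM in the 3 groups). So was PAX8 (183.4 and 138.3, 181.6 and 145.1, 188.9 and 123.1 FPKM). Other epithelial markers did not share this. KRT18 was lower in replicate 1 of the groups without the potential label (290.6 and 464.4, 337.5 and 408.6 FPKM). KRT8 was lower there as well (96.9 and 104.1, 90.6 and 107.7 FPKM), and EPCAM in high-to-low alone (6.17 and 10.6 FPKM). The description prefix differs between replicates 1 and 2 of both accelerated groups and is the same in both high-to-low libraries. The part of ALDH1A1, the epithelial markers or the prefix in this pattern was not tested.

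**Figure D2:**
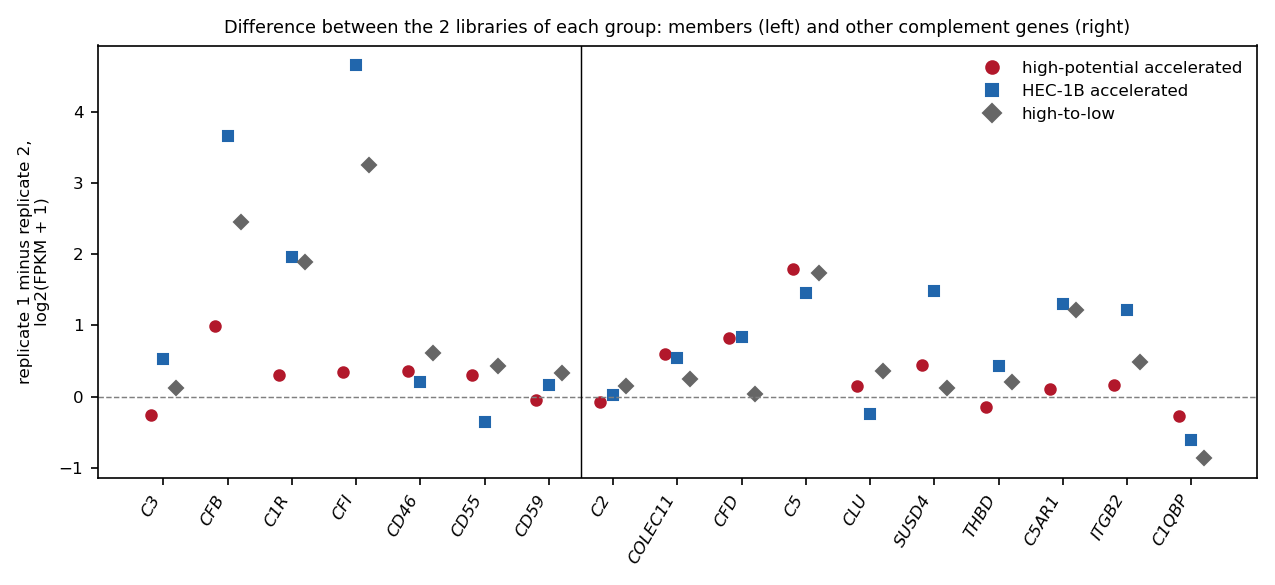
The vertical axis is the log2(FPKM + 1) value of replicate 1 minus that of replicate 2, with 1 point per gene and group, for the 7 tested members left of the line and 10 other complement genes right of it. CFI (4.65 and 3.25), CFB (3.66 and 2.45) and C1R (1.96 and 1.89) stand highest in the HEC-1B accelerated and high-to-low groups, and C5 lies between 1.46 and 1.79 in all 3 groups.

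The promoters of these 3 genes run, per RefSeq, from 250 bases before to 50 bases after a transcript start on build GRCh38.p14. They are shown because each gene was higher in replicate 1 than in replicate 2 of both groups without the potential label. The genes did not move together over all 6 libraries. In high-potential cells CFI stood at 36.2 and 28.2 FPKM, while C1R was at 0.574 and 0.274. CFB lies on the plus strand at chr6:31945845-31946144, CFI on the minus strand at chr4:109801950-109802249, and the first of 2 listed starts of C1R on the minus strand at chr12:7092396-7092695. The sequences run 5′ to 3′ along the gene, and capitals mark matches to any of 5 motifs searched on both strands: the NF-kB consensus, TTCNNNGAA (bound by STAT factors), GAAANNGAA (the core of interferon response elements), TTNNGNAAT (bound by C/EBP factors) and TATAAA.
CFB: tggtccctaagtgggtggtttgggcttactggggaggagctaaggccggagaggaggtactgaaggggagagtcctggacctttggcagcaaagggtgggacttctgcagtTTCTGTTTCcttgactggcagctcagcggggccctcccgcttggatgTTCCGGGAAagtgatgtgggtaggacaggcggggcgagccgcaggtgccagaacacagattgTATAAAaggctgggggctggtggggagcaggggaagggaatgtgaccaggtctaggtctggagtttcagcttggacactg
CFI: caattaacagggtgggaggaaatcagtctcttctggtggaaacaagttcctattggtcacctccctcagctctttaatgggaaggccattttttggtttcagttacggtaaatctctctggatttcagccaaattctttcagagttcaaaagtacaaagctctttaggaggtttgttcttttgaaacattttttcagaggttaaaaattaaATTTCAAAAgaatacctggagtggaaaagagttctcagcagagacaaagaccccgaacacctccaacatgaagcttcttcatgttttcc
C1R: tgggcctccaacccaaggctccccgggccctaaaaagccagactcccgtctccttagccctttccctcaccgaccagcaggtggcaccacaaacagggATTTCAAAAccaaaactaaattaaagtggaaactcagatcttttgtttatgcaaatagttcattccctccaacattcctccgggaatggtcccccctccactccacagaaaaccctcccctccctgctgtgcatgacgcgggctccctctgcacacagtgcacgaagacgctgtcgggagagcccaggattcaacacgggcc

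The CFB window held TTCNNNGAA from base -92, GAAANNGAA on the opposite strand from base -139 and TATAAA from base -30, counted from the transcript start. The CFI window held TTNNGNAAT on the opposite strand from base -39. That motif also matched in the C1R window shown, from base -152, and TTCNNNGAA matched from base -86 in the window of the second C1R start. No motif matched in all 3 genes, and no window of the 6 matched members held the NF-kB consensus. Of all 35116 listed promoters of the same length, 5.91% held the NF-kB consensus, 7.66% TTCNNNGAA, 8.11% GAAANNGAA, 10.998% TTNNGNAAT and 11.5% TATAAA. Promoters were matched for 6 of 9 members. The entries for C3, C1S and SERPING1 were missing. CD46 (2 starts) and CD55 (1 start) had no match to the 5 motifs, and CD59 (4 starts) held TTCNNNGAA in the windows of its first and second listed starts. A match is a description of these letters and says nothing of binding in these cells.

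The membrane inhibitors were expressed in every library and varied little. CD46, the cofactor for CFI, had the highest level of any member in each library. High-potential cells held 102.0 and 79.4 FPKM, HEC-1B accelerated cells 131.1 and 113.1, and high-to-low cells 136.0 and 88.7. The high-potential libraries lay below both HEC-1B accelerated libraries and overlapped high-to-low, and the difference from the mean of the others was -0.36 (95% interval -0.91 to 0.20, limma adjusted p = 0.446). CD55, which dissociates the convertases, was 27.7 and 22.2, 24.6 and 31.8, and 24.8 and 18.1 FPKM in the same order. All groups overlapped, with a difference of 0.02 (95% interval -0.50 to 0.54, limma adjusted p = 0.972).

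CD59, the inhibitor of the membrane attack complex, was the steadiest member. High-potential cells held 17.9 and 18.5 FPKM, HEC-1B accelerated cells 20.0 and 17.7, and high-to-low cells 20.7 and 16.3, a range of 1.27 times over all 6 libraries. Its difference of -0.03 had a 95% interval of -0.46 to 0.39 (limma adjusted p = 0.944). In this comparison the interval bound farthest from 0 among the 3 membrane inhibitors was the -0.91 of CD46, against -1.07 for CD46 between high-potential and HEC-1B accelerated cells. Changes inside these intervals were not resolved by 2 libraries a group. Between HEC-1B accelerated and high-to-low the differences were 0.15 for CD46 (95% interval -0.50 to 0.79), 0.38 for CD55 (-0.21 to 0.98) and 0.03 for CD59 (-0.46 to 0.52).

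For the proteases and CFI, that comparison gave -0.84 for CFB (95% interval -3.95 to 2.27), -0.36 for CFI (-4.26 to 3.55) and -0.08 for C1R (-2.02 to 1.87). Each member had a limma adjusted p of 1. Over the 5 comparisons the lowest limma adjusted p among the tested members other than C3 was 0.426, for C1R between high-potential cells and the mean of the others.

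**Figure D3:**
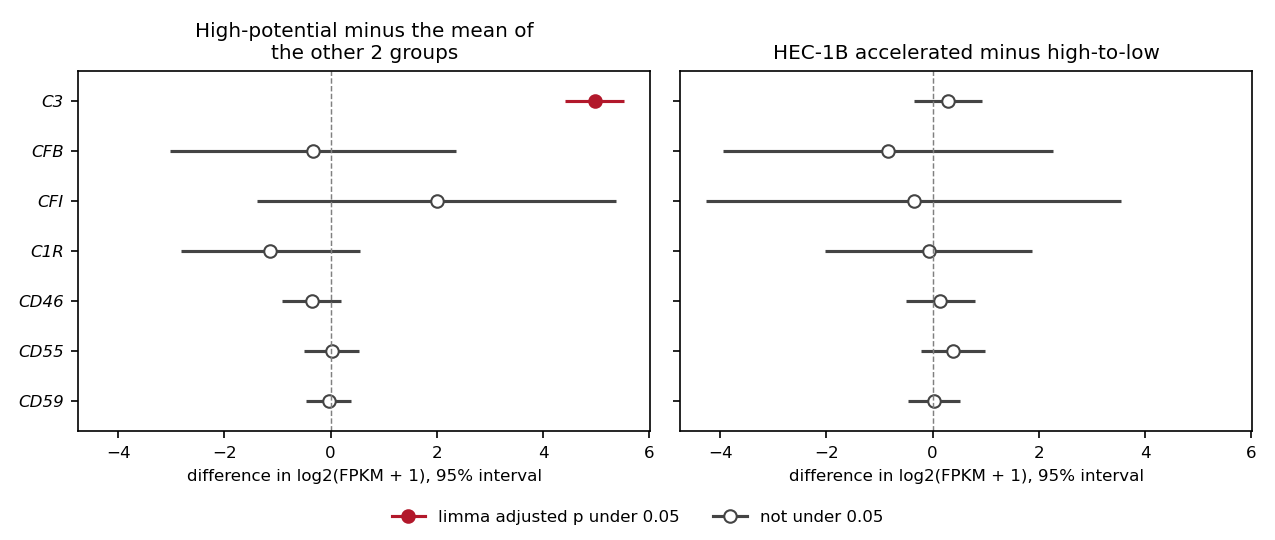
The horizontal axis is the difference in log2(FPKM + 1) with its 95% interval from the limma model for the 7 tested members, in high-potential cells against the mean of the other 2 groups (left) and in HEC-1B accelerated against high-to-low cells (right), with filled points for adjusted p under 0.05. C3 at 4.97 on the left is the only filled point, the intervals of CFB, CFI and C1R are wide, and those of CD46, CD55 and CD59 are narrow around 0.

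Levels per length also set C3 beside the membrane inhibitors, CFB and CFI. In the high-potential libraries C3 at 42.0 and 50.6 FPKM lay below CD46 at 102.0 and 79.4 and above CD55 at 27.7 and 22.2 and CD59 at 17.9 and 18.5. In the other 4 libraries C3 stayed at or below 0.998 FPKM, beneath each membrane inhibitor, whose lowest value was 16.3 FPKM. CFB was above C3 in each of these 4 libraries and below it in both high-potential libraries.

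Of 53 other complement genes on a list, all were present in the tables (C5AR2 under the older symbol GPR77), 10 reached 1 FPKM in at least 1 library and 18 are listed at 0 in all 6. These 10 entered the test, and 0 were called in any of the 5 comparisons with limma (THBD had an unadjusted p under 0.05 in 3 comparisons, and no other gene did in any). Their median difference between high-potential cells and the mean of the others was -0.32, beside 0.00 over all genes and -0.03 over the 7 tested members. In the classical pathway, C2, the protease subunit of its C3 convertase, stood at 1.34 and 1.46 FPKM in high-potential cells and at 0.922 to 1.13 elsewhere, and the other 6 listed genes stayed below 1. In the alternative pathway, CFD, which cleaves CFB, was 11.4 to 31.6 FPKM, and groups overlapped.

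Among terminal components only C5 was expressed, at 11.8 and 2.70, 15.6 and 5.02, and 13.8 and 3.46 FPKM in high-potential, HEC-1B accelerated and high-to-low replicates 1 and 2. C5 was thus lower in replicate 2 of each group, and the other 6 terminal genes stayed below 1. The soluble regulator CLU (clusterin), which binds terminal complexes, was 156.9 to 238.1 FPKM, and the other 11 soluble regulators stayed below 1. COLEC11, a lectin pathway collectin, was 6.79 to 12.2 FPKM. C1QBP, a mitochondrial protein that can bind C1q, was 393.1 to 812.1 FPKM, the highest of the list.

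The receptor C5AR1, which senses C5a, was 1.28 and 1.11, 3.21 and 0.703, and 3.45 and 0.911 FPKM in the 3 groups, and ITGB2, the beta chain of the complement receptors CR3 and CR4, was 0.222 to 1.84 FPKM. The receptor for C3a, C3AR1, named here after its values were seen, was at most 0.0572 FPKM. SUSD4, a membrane inhibitor, was 0.581 to 3.42 FPKM, with both extremes in HEC-1B accelerated and both high-to-low values above both high-potential values. THBD (thrombomodulin), which aids the inactivation of C3b, stood at 0.832 and 1.03 FPKM in high-potential cells and at 1.54 to 2.81 elsewhere. Both high-potential values of THBD were below all others, as for 0 of 7 tested members and 17.5% of all genes, and the difference of -0.74 did not pass (SE 0.225, limma adjusted p = 0.144). Among the 10 tested genes of this list, both high-potential values were above all others for C2 alone (difference 0.25, limma adjusted p = 0.542). The same held for 1 of 7 tested members, which was C3, and for 15.3% of all genes. Of list genes that did not enter the test, ITGAM also lay above, at 0.401 and 0.348 against at most 0.0441 FPKM. COLEC10 and CFHR5 lay below, listed at 0 in both high-potential libraries. These 3 genes were named after their values were seen.

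**Figure D4:**
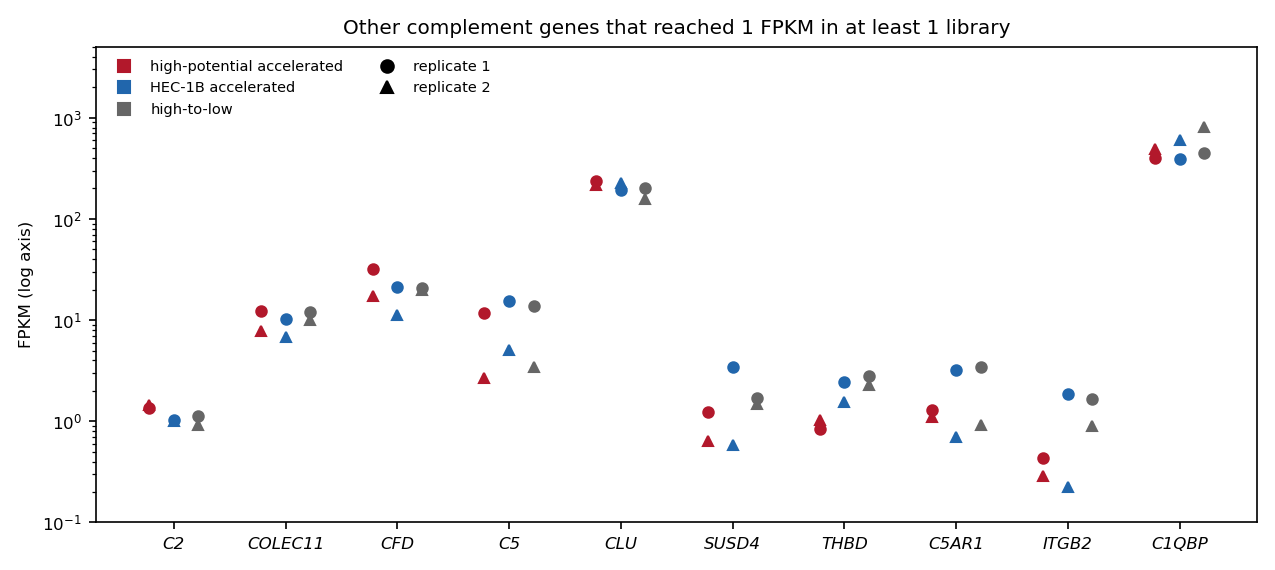
The vertical axis is FPKM on a log axis for the 10 other complement genes that reached 1 FPKM, with colours for the 3 groups, circles for replicate 1 and triangles for replicate 2. CLU is at or above 156.9 and C1QBP at or above 393.1 FPKM in every library, and C5 is lower in replicate 2 than in replicate 1 of each group, from 2.70 to 5.02 against 11.8 to 15.6 FPKM.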

How the data were processed

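RNA was measured in 6 HEC-1B libraries made with the SMART-Seq v4 and Nextera kits, per the labels' protocols, which keep no strand. The authors deposited 1 table of FPKM per library. Per the submitters' processing notes, TopHat2 2.0.13, Cuffnorm 2.2.1 and build hg19 were used; neither the annotation nor the scaling between libraries is given in the sources used here. A count model cannot take FPKM and none was run. Members were matched by symbol. The members and gene lists were chosen with earlier results of these data known. The fit took the 12135 genes that reached 1 FPKM in 2 or more libraries, as log2(FPKM + 1), and used limma 3.58.1 (R 4.3.3) on all 6 libraries, allowing the variance to follow the mean level, with 3 residual degrees of freedom. The 5 contrasts were the 3 pairs of groups, both accelerated groups against high-to-low, and high-potential against the mean of the other groups. The step was run on simulated data with known differences. Noise was drawn there independently for each library, so effects shared by libraries were not covered. The rule named the 9 members, listed complement genes at 1 FPKM or more and the 5 genes most like C3 in profile. ALDH1A1 and genes of the marker lists are given as checks. C3AR1, ITGAM, COLEC10 and CFHR5 were added after their values were seen. The value of 1 fragment is a rough estimate, the median of low values within a preset window over 55 to 81 genes per library that have 1 transcript in GENCODE, so depths and fragment numbers are approximate. Alternatives changed the pseudocount, filter, scaling, small RNA genes, variance model, libraries and added terms.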

Additional observations from a re-analysis of the deposited data

How the results depend on the processing

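With 2 libraries a group, only differences well beyond the spread of a pair can pass, and levels under about 0.1 FPKM rest on 1 or a few fragments. Over 35 member differences (7 members in 5 comparisons) and 18 alternative settings, 616 values were recomputed: 559 kept their sign and side of the threshold, 50 changed sign while uncalled in both fits, 7 lost the call and 0 gained one. The C3 calls of high-potential cells against HEC-1B accelerated, high-to-low and the mean of both held under each alternative, with differences of 4.56 to 5.98, 4.99 to 6.67 and 4.84 to 6.33. The 7 lost calls were those of C3 in both accelerated groups against high-to-low. There 0 members were called at a pseudocount of 0.1 (limma adjusted p = 0.0862), with no filter (0.169), and with small RNA genes removed (0.0587), and 0 to 1 when 1 library was left out; the cause was not tested.

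Sign changes concerned differences near 0 or members that differed between replicates. In high-potential against the mean of the others, CD59 was 0.0074 with quantile normalization and CFB 0.25 with a term for the description number, and leaving out 1 library gave -1.25 to 0.58 for CFB, -1.63 to -0.64 for C1R, 0.83 to 3.16 for CFI, -0.13 to 0.18 for CD55 and -0.12 to 0.049 for CD59. In HEC-1B accelerated against high-to-low, the description number term gave 0.32 for CFB, 0.49 for C1R and 0.90 for CFI. Leaving out 1 library gave -2.67 to 0.99 for CFB, -1.06 to 0.91 for C1R, -2.68 to 1.97 for CFI, -0.16 to 0.45 for CD46 and -0.13 to 0.20 for CD59, with the ends set by HEC-1B accelerated replicates 1 and 2 for CFB, C1R and CFI.

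No label says that a replicate number marks a shared culture or day. Deviations of same-numbered libraries correlated at 0.158 to 0.281 across 12135 genes, which are not independent replicates. With the replicate number as a block, C3 kept its 4 calls (4.97 against the mean of the others, limma adjusted p = 0.000979) and no other member was called. Over all genes the count of calls ranged from 14 to 546 around 60 for high-potential against HEC-1B accelerated, 13 to 944 around 97 against high-to-low, 14 to 1346 around 279 against the mean, 1 to 17 around 8 for both accelerated groups and 0 to 7 around 2 for HEC-1B accelerated against high-to-low, with the upper ends of the first 4 from the replicate block.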
